A study of Mus musculus with 12 samples.

Results

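Transcript levels of Trp53 and 9 genes that it is known to activate or that act on it were examined in 4T1 cells, a triple-negative mammary carcinoma line of BALB/c mice. The genes were taken by symbol from the deposited gene count table as Trp53, Mdm2, Cdkn1a, Ccng1, Bbc3, Bax, Eda2r, Sesn1, Zmat3 and Phlda3, which are 10 of 40406 entries. RNA sequencing covered 12 cultures in 4 groups of 3. They were knockout-labelled cells given docetaxel, knockout-labelled cells given DMSO, wild-type cells given docetaxel and wild-type cells given DMSO, where the genotype label refers to integrin beta 3 (gene Itgb3). Docetaxel, a taxane that stabilises microtubules, was applied at 10 nM for 24 h, DMSO served as its solvent control, and every culture then had 48 h without drug on poly-L-lysine before harvest. The labels do not say how the knockout was made or whether it is a single clone. Each group was cultured in biological triplicate according to them, so means rest on n = 3 libraries.

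Trp53 encodes p53, a transcription factor that accumulates after DNA damage and other stress and turns on genes of cell-cycle arrest, DNA repair and apoptosis. Mdm2, one of its targets, encodes the ubiquitin ligase that marks p53 for degradation, so the pair forms a negative feedback loop. Docetaxel and other taxanes disturb mitosis, and prolonged mitotic arrest is known to activate p53 in cells that have it. 4T1 cells are known to lack p53 function. A count of reads per gene does not show whether a transcript encodes a working protein.

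The promoter sequences below show what letters lie where the genes start. Windows from RefSeq on GRCm38.p6, each running from 250 bases before to 50 bases after an annotated start, were available for 9 of the 10 genes, as 13 windows. They were searched for the p53 half-site, a motif of 10 bases that reads the same in its letter classes on both strands. Only exact matches to RRRCWWGYYY were counted and marked, where R is A or G, W is A or T and Y is C or T. The half-site was present in 6 of the 13 windows, belonging to 6 genes, and in 8.36% of 32851 windows of all genes. The window of the first Cdkn1a start held 2 exact half-sites with 12 bases between them. Such an arrangement (at most 13 bases apart) was found in 0.0731% of all windows. The 10 bases directly after the second of them, tgacatgttc, differ from the motif only in their first letter and were therefore not marked. The Cdkn1a half-sites lie 2863 and 2841 bases before its second annotated start. Of the sequences, Trp53 is shown for its difference between the genotypes, Cdkn1a as the canonical arrest gene, and Ccng1 as another gene of the set with a half-site. All are written 5′ to 3′ along the gene's strand, with half-sites in capitals. They cover chr11:69580109-69580408 (plus strand), chr17:29090729-29091028 (plus strand) and chr11:40755237-40755536 (minus strand).
Trp53: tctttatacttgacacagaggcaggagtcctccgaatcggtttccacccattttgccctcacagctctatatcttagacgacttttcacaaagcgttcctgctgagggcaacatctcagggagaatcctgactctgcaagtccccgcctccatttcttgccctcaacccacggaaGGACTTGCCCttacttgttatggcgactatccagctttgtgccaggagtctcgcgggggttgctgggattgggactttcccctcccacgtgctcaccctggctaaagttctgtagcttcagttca
Cdkn1a: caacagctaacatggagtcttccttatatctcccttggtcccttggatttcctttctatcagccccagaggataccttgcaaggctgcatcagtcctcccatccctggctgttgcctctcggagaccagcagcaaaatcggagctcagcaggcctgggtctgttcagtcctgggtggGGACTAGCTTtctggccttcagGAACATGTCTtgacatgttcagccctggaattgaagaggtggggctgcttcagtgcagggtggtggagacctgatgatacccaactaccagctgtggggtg
Ccng1: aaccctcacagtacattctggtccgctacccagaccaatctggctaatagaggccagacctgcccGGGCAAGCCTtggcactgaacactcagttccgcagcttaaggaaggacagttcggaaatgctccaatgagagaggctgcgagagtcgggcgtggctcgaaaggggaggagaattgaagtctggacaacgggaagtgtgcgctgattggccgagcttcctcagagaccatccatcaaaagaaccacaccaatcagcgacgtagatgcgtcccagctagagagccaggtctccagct
The other half-sites were GAACTTGCCT, beginning 186 bases before the Mdm2 start, AGGCAAGCTT, beginning 201 bases before the Bax start, and AAGCTTGTTT, beginning 173 bases before the second Sesn1 start. No window of Bbc3, Phlda3 or Eda2r held one. Binding was not measured, and a match is a description of letters only.

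Total counts per library ran from 28729118 to 40801679. The Itgb3 transcript was 62.4 to 66.7 CPM (a gene's count relative to the library total, scaled by TMM) in knockout-labelled DMSO cells and 60.1 to 71.4 CPM in wild-type DMSO cells. It did not separate the genotypes without drug. After docetaxel it was 59.3 to 64.6 CPM in knockout-labelled cells and 80 to 88.7 CPM in wild-type cells (log2 difference −0.41 ± 0.08, edgeR adjusted p = 0.00765). Itgb3 rose with docetaxel in wild-type cells (log2 fold change 0.34 ± 0.08, edgeR adjusted p = 0.00856). In knockout-labelled cells its change was −0.05 ± 0.08 (edgeR adjusted p = 0.725), and the interaction was not called (edgeR adjusted p = 0.294). Genotype directions therefore rest on the labels, under DMSO and after docetaxel. The description field of wild-type DMSO library 1 names the knockout, against its title and genotype. Epithelial markers (Epcam, Cdh1, Krt8, Krt18, Krt19 and Krt7) were all tested and summed to between 2780 and 4180 CPM. Summed fibroblast, leukocyte and endothelial markers stayed at or below 30, 37.4 and 0.799 CPM. Some libraries of a group were richer in GC-rich transcripts than others. The GC trend, the log2 level at 60% transcript GC minus that at 40%, was −0.49, 0.22 and −0.04 in docetaxel-treated knockout-labelled libraries 1 to 3, and −0.01, −0.30 and 0.24 in wild-type DMSO libraries 1 to 3. A feature named Gm23935 took 3.98% of counts in wild-type DMSO library 2 and 1.51% in docetaxel-treated knockout-labelled library 3, the highest of their groups.

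Compared per kb of exon, Bax had the highest mean level over the 12 libraries, at 27.3 CPM per kb. Phlda3 followed at 14.7, Trp53 at 11.7, Ccng1 at 11.3, Mdm2 at 8.96 and Bbc3 at 7.36 CPM per kb. Sesn1, Cdkn1a and Zmat3 were lowest of the tested genes, at 3.94, 3.45 and 3.00 CPM per kb. Trp53 was above Ccng1 in 7 of 12 libraries, Sesn1 above Cdkn1a in 8 and Cdkn1a above Zmat3 in 9, so the order of these neighbours did not hold in every library. Bax was above Phlda3, and Ccng1 above Mdm2, in all 12. The mean of Bax was at or above that of 88.9% of the 15538 tested genes, that of Trp53 of 73.7% and that of Cdkn1a of 45.3%. Exon lengths are those of GENCODE M21 and may differ from the annotation used for counting.

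**Figure D1:**
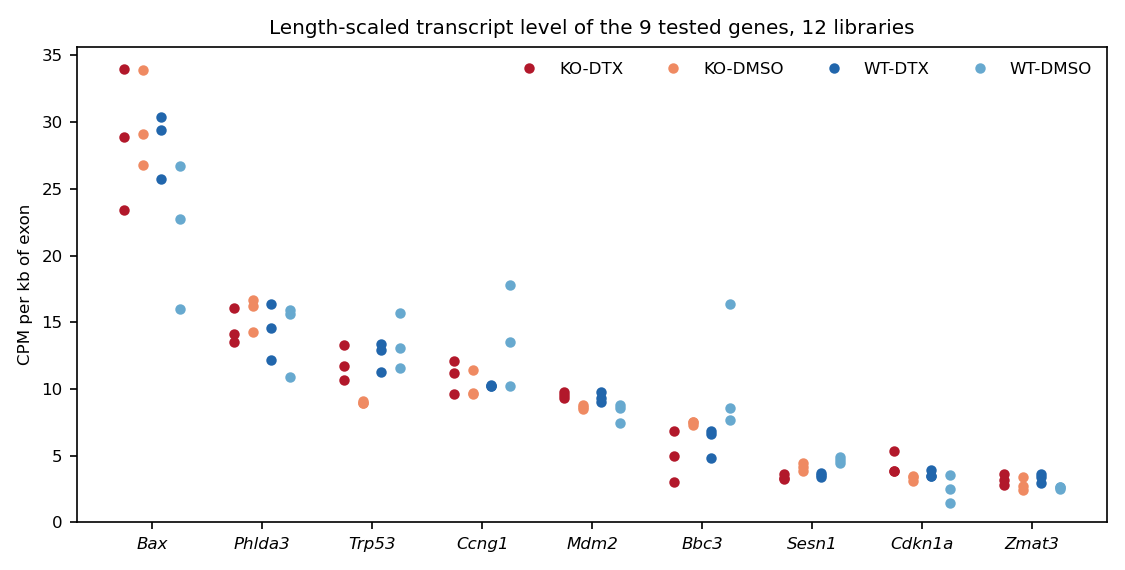
Length-scaled level (y axis, CPM per kb of exon) of the 9 tested genes in each of 12 libraries, coloured by group. Each point is 1 library, and Bax lies highest, between 16 and 34 CPM per kb.

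With docetaxel, Trp53 was called in one genotype and Bbc3 and Sesn1 in the other. In knockout-labelled cells 1 of 9 tested genes, Trp53 itself, was higher with docetaxel and 0 were lower. In wild-type cells 0 were higher and 2, Bbc3 and Sesn1, were lower. The canonical arrest gene Cdkn1a and the feedback gene Mdm2 passed in neither genotype. Across all 15538 tested genes, docetaxel raised 9.09% and lowered 7% in knockout-labelled cells, and raised 14.5% and lowered 13.8% in wild-type cells (edgeR quasi-likelihood test, Benjamini-Hochberg adjusted p below 0.05). Called in either direction, that is 16.1% of all genes in knockout-labelled and 28.4% in wild-type cells, so the counts of 1 and 2 of 9 lie near the background. In wild-type cells the count was 5 of 9 with a GC correction, where 5337 of all 15538 genes were called, against 4406 without it. With no filter on low counts it was 6 of 9, where 4581 of a larger set of genes were called. The median log2 fold change of the 9 genes was 0.10 in knockout-labelled and 0.03 in wild-type cells, against 0 and 0.02 over all tested genes. The tenth gene, Eda2r, had too few counts to be tested.

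Between the genotypes the one difference that passed was in Trp53, which was lower in knockout-labelled cells under DMSO. The other 8 tested genes did not pass under DMSO, and none of the 9 passed after docetaxel. Of all genes, 6.6% were called higher and 9.2% lower in knockout-labelled cells under DMSO, and 2.5% and 3.39% after docetaxel. The difference between the docetaxel effects of the genotypes, tested as an interaction, passed for 0 of the 9 genes by edgeR and for 0 by DESeq2. At an unadjusted edgeR p under 0.05 it held for 2 of them, Trp53 and Ccng1, as it did for 1714 of all 15538 genes. After adjustment that test called 0.0901% of all genes with a higher and 0.0193% with a lower docetaxel effect in knockout-labelled cells. Comparisons that use the same group, such as docetaxel in wild-type cells and genotype under DMSO, share its 3 libraries and are not independent.

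**Figure D2:**
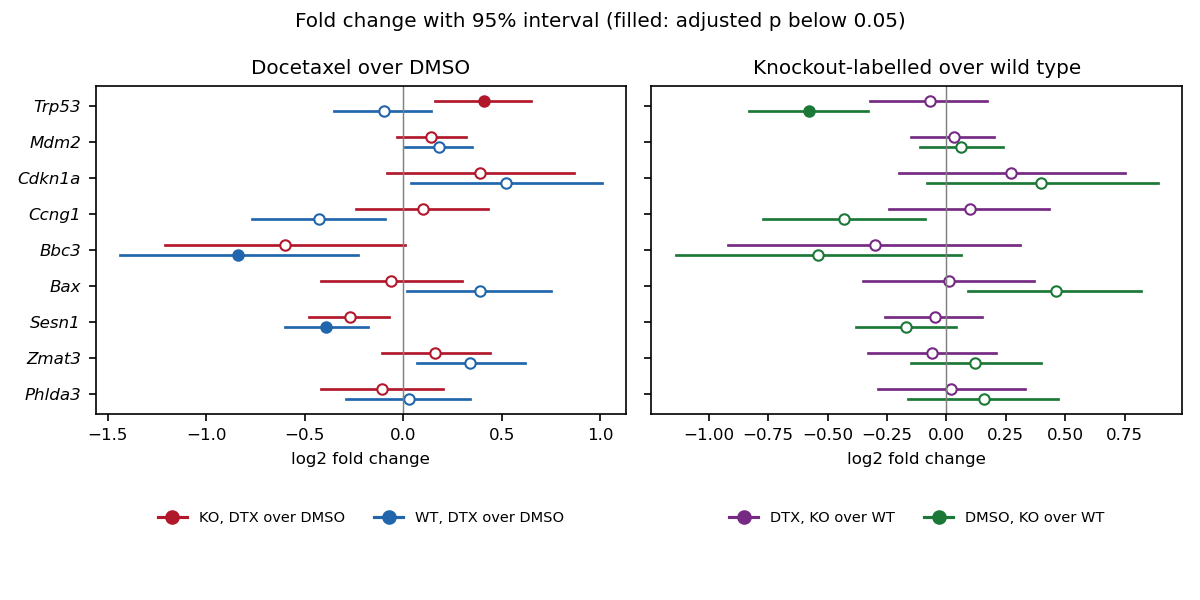
Log2 fold change (x axis) of each tested gene with its 95% interval, for docetaxel over DMSO (left) and knockout-labelled over wild type (right). Filled points passed an adjusted p of 0.05 and were Trp53 in knockout-labelled cells, Bbc3 and Sesn1 in wild-type cells, and Trp53 between genotypes under DMSO.

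Trp53 (ENSMUSG00000059552.13) occupies chromosome 11, 69580359 to 69591873 (plus strand, GRCm38). Its level was 53.8, 43.2 and 47.3 CPM in docetaxel-treated knockout-labelled libraries, against 36.1, 36.1 and 36.8 CPM under DMSO. In wild-type cells it was 52.3, 45.7 and 54.1 CPM with docetaxel, against 46.8, 63.5 and 52.8 CPM under DMSO. The knockout-labelled DMSO group stood below the other 3, none of whose libraries reached down to it. Against wild-type DMSO cells it differed on the log2 scale by −0.58 ± 0.12 (SE, edgeR adjusted p = 0.00385), and the call held in all 15 alternatives, with differences of −0.68 to −0.45. After docetaxel the genotypes overlapped, at −0.07 on the log2 scale (95% interval −0.32 to 0.17, edgeR adjusted p = 0.812). Docetaxel raised Trp53 in knockout-labelled cells by 0.41 ± 0.12 on the log2 scale (edgeR adjusted p = 0.0282). This call was lost without knockout-labelled DMSO library 1, 2 or 3 (adjusted p = 0.0820, 0.0921 and 0.0812) and without docetaxel-treated knockout-labelled library 1 or 3 (0.116 and 0.0688). In wild-type cells the value was −0.10 ± 0.11 (edgeR adjusted p = 0.548). Tested as an interaction, the 2 effects were 0.51 ± 0.16 apart, which was not called (edgeR adjusted p = 0.322, and 0.0534 to 0.868 over 20 alternatives). Of 6 fibroblast markers only 1, Pdgfra, had enough counts to be tested. The others averaged at most 0.15 CPM in any group, and Lum was at 0. Pdgfra averaged 12.3 CPM with docetaxel and 15 CPM under DMSO in knockout-labelled cells, against 19.3 and 28.4 CPM in wild-type cells. Its lowest group was docetaxel-treated knockout-labelled cells. That of Trp53 was knockout-labelled DMSO cells, as was that of the leukocyte marker Cd68. Cd68 averaged 24.1 CPM with docetaxel and 16.9 CPM under DMSO in knockout-labelled cells, against 22.6 and 26.5 CPM in wild-type cells. The other leukocyte markers tested, Csf1r and Cd3e, were lowest in wild-type cells, under DMSO and with docetaxel respectively. The part of these markers in the Trp53 difference was not tested. A processed pseudogene, Trp53-ps, had 0 to 2 counts per library, and reads shared with it may have been left out of the Trp53 count. In bulk RNA, fewer cells that express a gene and less RNA per cell cannot be told apart.

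Mdm2 (ENSMUSG00000020184.15; chromosome 10, 117688875 to 117710758, minus strand) was the steadiest of the set, its highest library being 1.31 times its lowest. It had 49.6, 48.4 and 47.6 CPM in knockout-labelled cells with docetaxel, against 44.9, 43.1 and 43.8 CPM under DMSO. In wild-type cells the docetaxel libraries had 47.5, 45.8 and 49.5 CPM, against 44.7, 37.8 and 43.7 CPM under DMSO. Every docetaxel library was above every DMSO library of its genotype. The step was small, with log2 fold changes of 0.14 ± 0.08 in knockout-labelled and 0.18 ± 0.08 in wild-type cells, and neither passed after adjustment (edgeR adjusted p = 0.253 and 0.111). The 95% intervals, −0.03 to 0.32 and 0.01 to 0.35, leave out a change of 1.5-fold or more. Mdm4, whose product also binds and inhibits p53, averaged 69.0 ± 9.90 CPM (SD) in knockout-labelled docetaxel cells and 73.6 ± 1.57 CPM in knockout-labelled DMSO cells. Wild-type cells had 69.5 ± 10.5 CPM with docetaxel and 73.4 ± 13.1 CPM under DMSO. It passed in no comparison (edgeR adjusted p = 0.705 to 0.991).

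Cdkn1a (ENSMUSG00000023067.14; chromosome 17, 29090976 to 29100727, plus strand) encodes p21, the inhibitor of cyclin-dependent kinases through which p53 arrests the cell cycle. It had 19.1, 13.6 and 13.7 CPM in knockout-labelled docetaxel libraries, against 12.1, 11.0 and 12.3 CPM under DMSO. Wild-type libraries had 12.3, 12.2 and 13.9 CPM with docetaxel, against 12.5, 8.98 and 5.30 CPM under DMSO. The knockout-labelled groups did not overlap, while wild-type DMSO library 1 lay within the docetaxel range. The log2 fold changes were 0.39 ± 0.22 and 0.52 ± 0.23 in knockout-labelled and wild-type cells (edgeR adjusted p = 0.257 and 0.101). Leaving out wild-type DMSO library 1 gave a wild-type change of 0.84 that passed (edgeR adjusted p = 0.00827), as it did in 2 of 15 alternatives. Leaving out wild-type DMSO library 3, the lowest, gave 0.25 (edgeR adjusted p = 0.335). The difference between genotypes under DMSO was 0.13 without library 3 (edgeR adjusted p = 0.672) and passed without library 1, at 0.73 (edgeR adjusted p = 0.0251, against 0.40 and 0.258 with all libraries). An exon stretch of 273 bases, 7.7% of the total, overlaps AC167363.2 on the other strand, and whether the counting used strand is not known here.

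Ccng1 (ENSMUSG00000020326.7; chromosome 11, 40748552 to 40755311, minus strand) encodes cyclin G1, which is known to bring protein phosphatase 2A to Mdm2. Knockout-labelled libraries had 42.4, 33.7 and 39.4 CPM with docetaxel, against 34.1, 33.8 and 40.2 CPM under DMSO. Wild-type libraries had 35.9, 36.3 and 35.9 CPM with docetaxel, against 35.7, 62.6 and 47.3 CPM under DMSO. The wild-type DMSO group was the spread-out one, and its library 2 was the highest of all 12. The log2 fold change with docetaxel was 0.10 ± 0.16 in knockout-labelled cells (edgeR adjusted p = 0.732) and −0.43 ± 0.16 in wild-type cells (edgeR adjusted p = 0.0552). The wild-type change passed in 5 of 15 alternatives. One omitted wild-type DMSO library 1, whose value lay with the docetaxel libraries, and gave −0.61 (edgeR adjusted p = 0.00344), as did the genotype difference under DMSO, also −0.61 (edgeR adjusted p = 0.00508). With wild-type DMSO library 2 omitted these were −0.20 and −0.21 (edgeR adjusted p = 0.281 and 0.382).

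**Figure D3:**
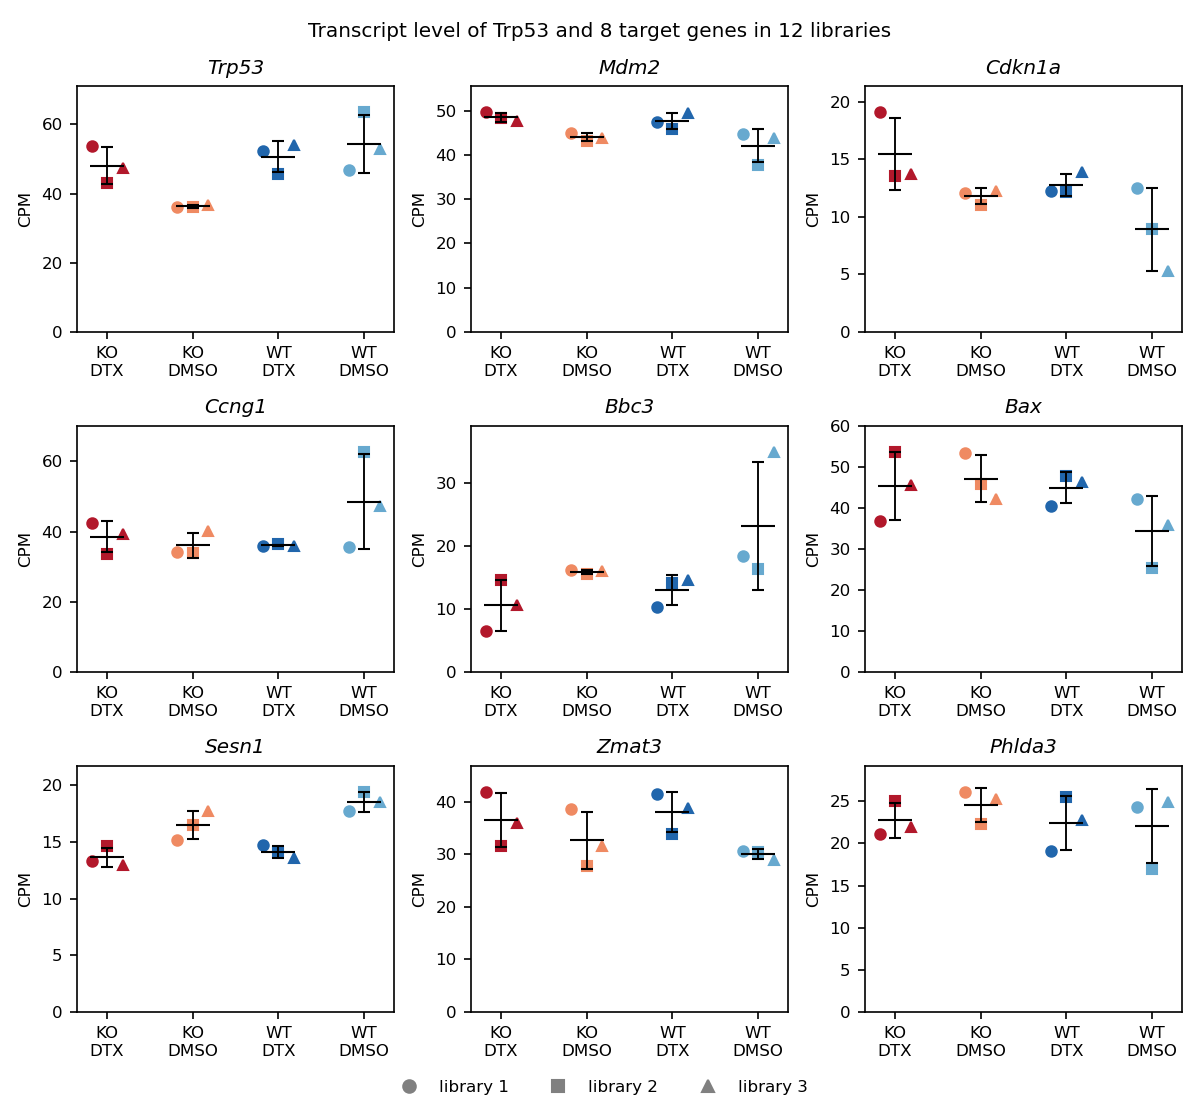
Level (y axis, CPM, from 0) of Trp53 and 8 target genes in 12 libraries, by group, with knockout-labelled (KO) and wild-type (WT) cells given docetaxel (DTX) or DMSO. Symbols mark the library number and black bars the group mean ± SD of 3 libraries, and Trp53 is narrow and low in KO DMSO at 36.1 to 36.8 CPM.

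Among the apoptosis genes, Bbc3 (ENSMUSG00000002083.13; chromosome 7, 16308393 to 16318205, plus strand) encodes PUMA, a BH3-only protein that neutralises survival members of the BCL2 family. It had 6.49, 14.5 and 10.6 CPM in knockout-labelled docetaxel libraries, against 16.1, 15.5 and 16 CPM under DMSO. Wild-type libraries had 10.3, 14.1 and 14.5 CPM with docetaxel, against 18.3, 16.3 and 34.8 CPM under DMSO. All docetaxel libraries of each genotype were below all its DMSO libraries. Bbc3 fell in wild-type cells (log2 fold change −0.84 ± 0.28, edgeR adjusted p = 0.0391). It no longer passed when wild-type DMSO library 3 was omitted, where the change was −0.42 (adjusted p = 0.236), without docetaxel library 1, 2 or 3 (adjusted p = 0.142, 0.0684 and 0.0673), and with DESeq2 (adjusted p = 0.0533). In knockout-labelled cells the value was −0.60 ± 0.29 (edgeR adjusted p = 0.175), and −0.89 without docetaxel library 2 (adjusted p = 0.0489) but −0.34 without docetaxel library 1 (adjusted p = 0.490).

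Bax (ENSMUSG00000003873.11; chromosome 7, 45461697 to 45466898, minus strand) encodes the effector that permeabilises the outer mitochondrial membrane. Its level was 36.9, 53.6 and 45.5 CPM in knockout-labelled docetaxel libraries, against 53.4, 45.8 and 42.3 CPM under DMSO. In wild-type cells it was 40.6, 47.9 and 46.4 CPM with docetaxel, against 42.1, 25.3 and 35.8 CPM under DMSO. The 2 treatments overlapped in both genotypes. The log2 fold change was −0.06 ± 0.17 in knockout-labelled cells (edgeR adjusted p = 0.858) and 0.39 ± 0.17 in wild-type cells (edgeR adjusted p = 0.103). The wild-type change passed in 4 of 15 alternatives, one of which left out DMSO library 1 (0.56, edgeR adjusted p = 0.0283). Under DMSO the genotypes did not overlap, and knockout-labelled minus wild type was 0.46 ± 0.17 (edgeR adjusted p = 0.0842). Leaving out wild-type DMSO library 1 made it 0.63 (edgeR adjusted p = 0.0220). With wild-type DMSO library 2, the lowest, omitted, the docetaxel change was 0.21 and the genotype difference 0.27 (edgeR adjusted p = 0.337 and 0.292). Of its exon bases, 192 (12.2%) lie also in Gm45808 on the same strand, so reads from them may have been dropped or assigned elsewhere.

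Eda2r (ENSMUSG00000034457.10; chromosome X, 97333840 to 97377216, minus strand), a receptor for ectodysplasin A2 of the TNF receptor family, was close to undetected. Its raw counts were 3, 2 and 0 in knockout-labelled docetaxel libraries and 0 in all 3 knockout-labelled DMSO libraries. They were 0 in all 3 wild-type docetaxel libraries and 0, 1 and 0 in wild-type DMSO libraries. With 6 counts in 12 libraries it was removed by the filter on low counts, and no difference was detectable at this depth.

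Sesn1 (ENSMUSG00000038332.13; chromosome 10, 41809935 to 41908424, plus strand) encodes sestrin 1, which restrains mTORC1 signalling under stress. Knockout-labelled libraries had 13.3, 14.6 and 13 CPM with docetaxel, against 15.2, 16.5 and 17.7 CPM under DMSO. Wild-type libraries had 14.7, 14.1 and 13.6 CPM with docetaxel, against 17.7, 19.4 and 18.5 CPM under DMSO. The groups did not overlap in either genotype, docetaxel being the lower. Sesn1 fell in wild-type cells (log2 fold change −0.39 ± 0.10, edgeR adjusted p = 0.00851), a call kept in all 15 alternatives. In knockout-labelled cells the value was −0.27 ± 0.10 (edgeR adjusted p = 0.0688), which passed in 0 of 15 alternatives (lowest adjusted p = 0.0507). The docetaxel effects of the genotypes differed by 0.12 ± 0.14 (edgeR adjusted p = 0.778).

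Zmat3 (ENSMUSG00000027663.12; chromosome 3, 32334792 to 32366014, minus strand), which encodes an RNA-binding zinc-finger protein, had 41.8, 31.6 and 36 CPM in knockout-labelled docetaxel libraries, against 38.5, 27.8 and 31.6 CPM under DMSO. Wild-type libraries had 41.4, 33.8 and 38.8 CPM with docetaxel, against 30.6, 30.4 and 28.9 CPM under DMSO. Only the wild-type groups were apart. The wild-type log2 fold change of 0.34 ± 0.13 sat at the threshold (edgeR adjusted p = 0.0598) and passed in 7 of 15 alternatives, among them the fit without wild-type docetaxel library 2 (0.42, adjusted p = 0.0472). In knockout-labelled cells it was 0.16 ± 0.13 (edgeR adjusted p = 0.424).

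Phlda3 (ENSMUSG00000041801.5; chromosome 1, 135766119 to 135769136, plus strand) encodes a pleckstrin-homology protein that inhibits AKT. It had 21.1, 25.1 and 22.0 CPM in knockout-labelled docetaxel libraries, against 26.1, 22.3 and 25.3 CPM under DMSO. Wild-type libraries had 19.1, 25.5 and 22.8 CPM with docetaxel, against 24.3, 17 and 24.9 CPM under DMSO. All groups overlapped. The log2 fold changes were −0.11 (95% interval −0.42 to 0.20, edgeR adjusted p = 0.649) in knockout-labelled and 0.03 (−0.29 to 0.34, edgeR adjusted p = 0.915) in wild-type cells.

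Several of these genes varied within groups along with the GC trend of the library. Transcript GC content was 65.2% for Bbc3, 63.5% for Bax and 62.6% for Phlda3, against 40.8% for Ccng1. Bbc3 deviated from its group mean by −0.62, 0.54 and 0.09 (log2) in docetaxel-treated knockout-labelled libraries 1 to 3, whose GC trends were −0.49, 0.22 and −0.04. In wild-type DMSO libraries 1 to 3, whose GC trends were −0.01, −0.3 and 0.24, the deviations of Bbc3 were −0.25, −0.42 and 0.67. Those of Ccng1 were −0.41, 0.41 and 0, so its lowest library was not the one with the highest trend. After a GC correction the within-group SD (log2) was 0.283 for Bbc3, against 0.438 without it, 0.164 for Bax, against 0.254, and 0.118 for Phlda3, against 0.206. It was larger after the correction for 4 of the 9 genes, at 0.206 for Trp53, against 0.152, 0.393 for Cdkn1a, against 0.349, 0.084 for Mdm2, against 0.074, and 0.091 for Sesn1, against 0.082. With the correction, which called 5337 genes for docetaxel in wild-type cells against 4406 without it, 5 of the 9 genes passed there. Bax and Zmat3 were then called higher, at 0.46 and 0.33 (edgeR adjusted p = 0.00807 and 0.0418), and Ccng1 lower, at −0.40 (edgeR adjusted p = 0.0256), beside Bbc3 and Sesn1. The part of the GC trend in the uncorrected results of these genes was otherwise not tested.

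**Figure D4:**
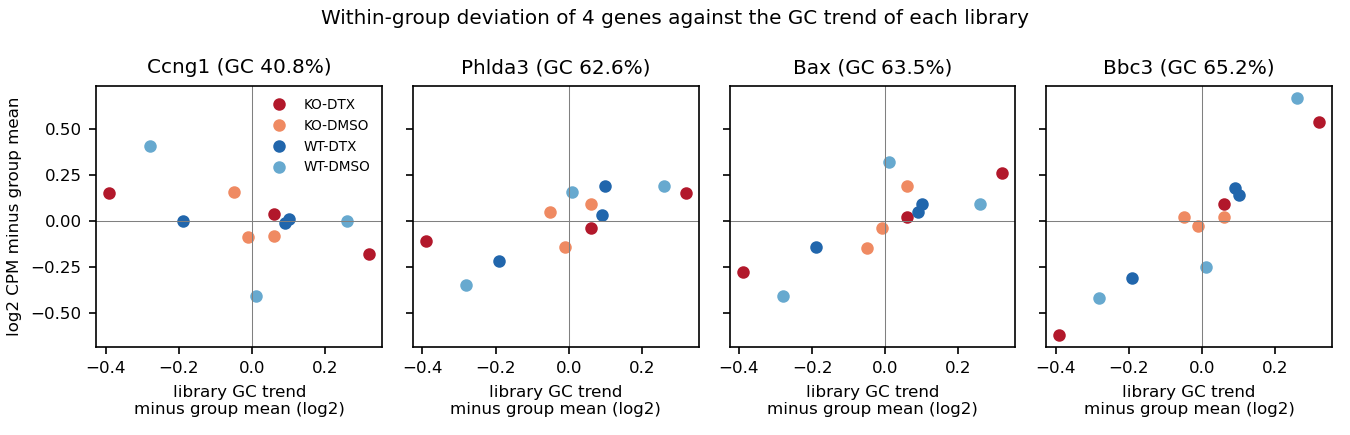
Deviation of each library from its group mean in log2 CPM (y axis) against the deviation of its GC trend (x axis, log2) for 4 genes, with their transcript GC content above each panel. Points are 12 libraries coloured by group, and for Bbc3 they run from −0.62 to 0.67.

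The wider pathway was described with gene lists of p53 regulators and further targets. Of 35 further targets tested, of 38 listed, docetaxel raised 8 and lowered 2 in knockout-labelled cells, and raised 6 and lowered 10 in wild-type cells. The shares over all genes were 9.09% higher and 7% lower in knockout-labelled cells, and 14.5% and 13.8% in wild-type cells. The median log2 fold changes of the 35 were −0.03 and −0.09. Over the alternatives, 4 to 8 rose and 1 to 3 fell in knockout-labelled cells, and 5 to 9 rose and 7 to 13 fell in wild-type cells. The same alternatives called 1311 to 3316 of all genes in either direction in knockout-labelled cells and 3035 to 5449 in wild-type cells. Among all these lists, the gene with the largest increase was an apoptosis target in each genotype, Fas in knockout-labelled and Aen in wild-type cells. The death receptor gene Fas had 17.5 ± 0.530 CPM with docetaxel and 5.14 ± 0.353 CPM under DMSO in knockout-labelled cells (SD; log2 fold change 1.77 ± 0.14, SE, edgeR adjusted p = 1.87e-06). In wild-type cells Fas had 13.3 ± 0.852 CPM with docetaxel and 5.49 ± 1.17 CPM under DMSO (1.28 ± 0.14, edgeR adjusted p = 4.46e-05). Bid, which encodes the BH3-only link from death receptors to mitochondria, rose by 0.92 ± 0.09 in knockout-labelled and 0.83 ± 0.09 in wild-type cells (edgeR adjusted p = 1.02e-05 and 3e-05). Aen, which encodes a nuclease of apoptosis, rose by 0.83 ± 0.19 in knockout-labelled and 1.59 ± 0.20 in wild-type cells (edgeR adjusted p = 0.00931 and 0.000104). The knockout-labelled call of Aen was lost without DMSO library 2 or 3 (adjusted p = 0.0555 and 0.0507). Of 11 apoptosis targets tested, 4 rose and 1 fell in knockout-labelled cells (all genes 9.09% and 7%), and 3 rose and 2 fell in wild-type cells (all genes 14.5% and 13.8%).

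Of 8 metabolism and stress targets tested, 1 rose and 1 fell in knockout-labelled cells, where 9.09% of all genes rose and 7% fell. In wild-type cells 1 rose and 3 fell, where 14.5% of all genes rose and 13.8% fell. The one that rose was Tigar, which encodes a fructose bisphosphatase that diverts glycolysis. It had 10.1 ± 1.04 CPM with docetaxel and 5.14 ± 0.549 CPM under DMSO in knockout-labelled cells, and 8.19 ± 0.547 CPM with docetaxel and 3.61 ± 0.590 CPM under DMSO in wild-type cells (edgeR adjusted p = 0.000503 and 0.000121). Sesn2, the relative of Sesn1, fell in wild-type cells by 0.69 on the log2 scale (edgeR adjusted p = 0.00686). Of 16 targets of cell cycle and DNA repair, 3 rose and 0 fell in knockout-labelled cells (all genes 9.09% and 7%). In wild-type cells 2 of the 16 rose and 5 fell (all genes 14.5% and 13.8%). The kinase gene Plk3 rose by 0.74 ± 0.10 in knockout-labelled and 0.33 ± 0.10 in wild-type cells (edgeR adjusted p = 0.000151 and 0.0200). In wild-type cells Psrc1, which encodes a microtubule-associated protein, fell to 5.65 ± 0.488 CPM with docetaxel, against 13.8 ± 3.73 CPM under DMSO (−1.28 ± 0.21, edgeR adjusted p = 0.000774), and the DNA damage recognition gene Xpc fell by 0.60 on the log2 scale (edgeR adjusted p = 0.00880).

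**Figure D5:**
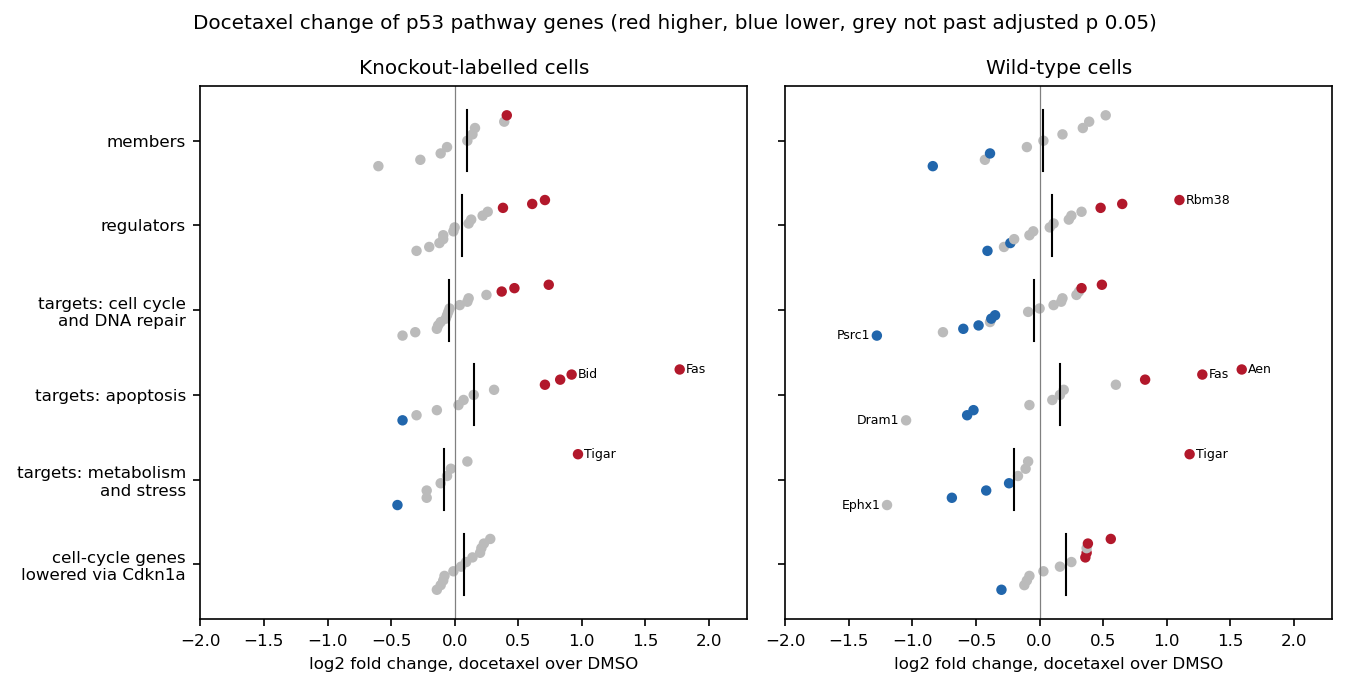
Log2 fold change of docetaxel over DMSO (x axis) for each tested gene of 6 lists in knockout-labelled (left) and wild-type cells (right). Each point is a gene, black bars are list medians, and Fas lies farthest right in knockout-labelled cells at 1.77.

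Of 14 p53 regulators tested, 3 rose and 0 fell in knockout-labelled cells (all genes 9.09% and 7%), and 3 rose and 2 fell in wild-type cells (all genes 14.5% and 13.8%). Rbm38, which encodes an RNA-binding protein that is both a target and a regulator of p53, had 17.1 ± 2.31 CPM with docetaxel and 10.4 ± 2.12 CPM under DMSO in knockout-labelled cells (0.71 ± 0.15, edgeR adjusted p = 0.00655). In wild-type cells it had 19.3 ± 2.29 CPM with docetaxel and 9.05 ± 0.824 CPM under DMSO (1.10 ± 0.16, edgeR adjusted p = 0.000265). Atm, which encodes the DNA damage kinase upstream of p53, rose by 0.61 ± 0.11 in knockout-labelled and 0.48 ± 0.11 in wild-type cells (edgeR adjusted p = 0.00224 and 0.00641). Of 12 cell-cycle genes that p53 is known to lower through Cdkn1a, 0 rose and 0 fell in knockout-labelled cells (all genes 9.09% and 7%). In wild-type cells 4 of them rose and 1 fell (all genes 14.5% and 13.8%). Their median log2 fold changes were 0.07 and 0.20. E2f1, a transcription factor gene of S-phase entry, had the largest change, with 50.2 ± 3.72 CPM with docetaxel and 34.1 ± 4.47 CPM under DMSO in wild-type cells (0.56 ± 0.12, edgeR adjusted p = 0.00395).

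Between genotypes under DMSO, 4 of 35 further targets were higher and 7 lower in knockout-labelled cells, against 6.6% and 9.2% of all genes. Without wild-type DMSO library 2 and docetaxel-treated knockout-labelled library 3, these counts were 0 and 3. Calls over all genes then also fell, to 1267 in either direction, against 2454 with all libraries. Over the alternatives 0 to 7 of the further targets were higher and 2 to 7 lower, while 1264 to 3280 of all genes were called. Among the called genes of at least 5 CPM, Psrc1 differed most, at 5.18 ± 0.976 CPM in knockout-labelled cells and 13.8 ± 3.73 CPM in wild-type cells (−1.41 ± 0.22, edgeR adjusted p = 0.000634). After docetaxel 1 of the 35 was higher and 1 lower, against 2.5% and 3.39% of all genes. Tnfrsf10b, which encodes a TRAIL death receptor, was lower in knockout-labelled cells after docetaxel, at −0.39 ± 0.08 on the log2 scale (edgeR adjusted p = 0.00703), and under DMSO (−0.36 ± 0.08, edgeR adjusted p = 0.00673). The higher one was the epoxide hydrolase gene Ephx1, named after its values were seen, at 3.57 ± 0.918 CPM in knockout-labelled and 0.508 ± 0.196 CPM in wild-type cells (2.80 ± 0.48, edgeR adjusted p = 0.00276). No further target passed the interaction (edgeR, 0 of 35).

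The likeness of patterns was measured as the root-mean-square difference of log2 CPM over the 12 libraries, each gene centred on its own mean, against 10183 other genes of at least 5 CPM. The genes closest to Trp53 were Tmem106b at 0.0888, Atp6v1b2 at 0.0913, Celf4 at 0.0929, Cnep1r1 at 0.0943 and Riok3 at 0.0966, where Trp53 itself varied with a root mean square of 0.250. Closest to Cdkn1a, which varied by 0.420, were Mcm4 at 0.126, Fignl1 at 0.127, Tipin at 0.131, Topbp1 at 0.135 and Lsm3 at 0.141. Closest to Mdm2, which varied by 0.105, were Coro1c at 0.0475, Atp6v1c1 at 0.0484, Capn10 at 0.0492, Zbtb21 at 0.0501 and Ppp2r2d at 0.0506. Within the set, the closest pair was Mdm2 and Zmat3 at 0.149, which is more than the 0.105 by which Mdm2 itself varied. A gene at a constant level would lie closer to Mdm2 than Zmat3 did. The value therefore does not show a shared pattern.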

How the data were processed

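Per the labels' protocols, ribosomal RNA was removed, cDNA was made with random hexamers and libraries were sequenced as paired reads. STAR 2.5.1a and featureCounts 1.4.6-p5 are named in the submitters' processing notes. How strand and multiply mapped reads were handled, and the build and annotation, are unknown here. The authors deposited raw counts per gene symbol. Of 40757 entries, 351 repeated another in symbol and counts (0.907% of counts) and were removed. All symbols matched GENCODE M21 (GRCm38).

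Counts were filtered with filterByExpr, scaled by TMM and fitted with edgeR 4.0.16 in R 4.3.3 as 1 quasi-likelihood model of 4 group means over 12 libraries, with p-values adjusted over 15538 genes and two-sided. Standard errors were derived from the F statistic and the log2 fold change. Log2 CPM used a prior count of 2. P-values set a difference against the spread between replicate cultures of each label. Whether the knockout-labelled cultures come from separately made lines is not known, so variation between such lines may not be covered. The genes and lists were chosen with earlier results of these data known. Beyond the set, up to 4 called genes per list and comparison with the largest changes and at least 5 CPM were eligible for naming, with Trp63, Trp73 and Mdm4. Alternatives were DESeq2 1.42.0, RLE factors, no filter, a replicate block, the libraries of a comparison alone, omission of each library, or of wild-type DMSO library 2 and docetaxel-treated knockout-labelled library 3 together (the highest of their groups in Gm23935), repeats kept, and a lowess correction for transcript GC (span 0.3, genes above log2 CPM 2), also with the block, which was added after seeing the data. Libraries of a group differed by a chi-square of 7.97 to 157 per degree of freedom, more than repeated sequencing of the same library would give. This value cannot show whether libraries came from separate cultures. Figures used matplotlib 3.10.9.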

Additional observations from a re-analysis of the deposited data

How the results depend on the processing

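Over 9 genes, 5 comparisons and all alternatives, 681 of 720 values kept their side of the threshold, 29 newly passed, 10 no longer passed and 0 passed with the opposite sign. For docetaxel in wild-type cells, 2 of the 9 genes were called, but 6 with no filter on low counts, 5 with the GC correction, 5 with the GC correction and replicate block, and 1 to 5 when a library was left out (5 without wild-type DMSO library 1). Over all genes that comparison called 4406, but 4581 with no filter, 5337 with the GC correction and 5449 with the correction and block. In knockout-labelled cells 1 was called, 2 with no filter (2499 and 3051 over all genes) and 0 to 2 with a library left out. For genotype under DMSO 1 was called, 4 with no filter, 2 with the GC correction, 3 with that and the block, and 1 to 4 with a library left out. Over all genes this comparison called 2454, but 2948 with no filter, 3135 with the GC correction and 3280 with that and the block.

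With a library left out, docetaxel called 1311 to 2739 genes in knockout-labelled cells (2499 with all) and 3035 to 4771 in wild-type cells (4406). Genotype called 1264 to 3273 under DMSO (2454) and 467 to 729 after docetaxel (915). Without wild-type DMSO library 2 and docetaxel-treated knockout-labelled library 3, genotype called 1267 under DMSO and 565 after docetaxel. With the GC correction and replicate block it called 1460 after docetaxel. The interaction called 17 genes, 165 with DESeq2, 421 with no filter, 48 with the replicate block, 39 with the GC correction, 109 with both, 4 without the same 2 libraries, and 2 to 431 with a library left out, 431 being without wild-type DMSO library 1. Causes were not tested.

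Libraries with the same replicate number did not deviate together in every pair (correlations across genes −0.187 to 0.346), so the numbers were not taken to pair the samples. With the block alone, the call that changed among the 9 genes was Zmat3 in wild-type cells (0.33, edgeR adjusted p = 0.0199). Precision is limited by 3 libraries per group. For the interaction, no fit to the libraries of a single comparison was made.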

Other observations

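Several genes of the p53 network were almost without reads. The family member Trp73 had 0 to 7 counts per library, and Cdkn2a, whose ARF product restrains Mdm2, had 0 to 6, with 19 counts in all 12 libraries. Pmaip1, which encodes the BH3-only protein NOXA, had 7 counts in all, and the stress-induced cytokine gene Gdf15 had 65. All were removed by the filter on low counts, so a docetaxel response of these targets could not be tested. Trp63 passed the filter at 0.439 ± 0.128 CPM in knockout-labelled docetaxel libraries and 0.368 ± 0.124 CPM in knockout-labelled DMSO libraries. In wild-type cells Trp63 had 0.301 ± 0.117 CPM with docetaxel and 0.196 ± 0.123 CPM under DMSO (SD), and it passed in no comparison (edgeR adjusted p = 0.308 to 0.884). Cdkn2a, Pmaip1 and Gdf15 were singled out after their values were seen.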
